A study of Homo sapiens with 6 samples.

Results

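Mitotic kinesins are motor proteins that walk along or take apart microtubules while a cell divides, and they work with a set of non-motor proteins that build the spindle and split the daughter cells. The genes described here are 32 named members of that machinery, found in the count table by exact match of the gene name. All 32 have a row of their own among 26906 rows. By role they comprise 9 motors of the spindle and chromosomes, 11 spindle assembly proteins, 10 proteins of the central spindle and of cytokinesis, and 2 kinases, and 13 of the 32 are kinesins.

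During mitosis the spindle forms from overlapping microtubules that motors slide and cross-link, and once the chromosomes have separated, the overlap in the middle becomes the central spindle, which places the cleavage furrow and later the site of abscission. Most of these genes are transcribed late in the cell cycle. Their promoters are known for a short element, the cell cycle genes homology region or CHR, which is bound by the MuvB complex together with DREAM partners in resting cells and with MYBL2 and FOXM1 in dividing cells, and for boxes bound by NF-Y.

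The cells were BE-(2)-C, an established human neuroblastoma line. They received either a control siRNA or an siRNA against ELF4, an ETS family transcription factor, and poly(A) RNA was sequenced 48 hours later. Each group had 3 libraries, and both groups were grown in the same medium with serum and antibiotics. No source used here gives the siRNA sequences, their number or whether each library came from a culture of its own. The p-values therefore reflect variation among these 6 libraries alone, and that variation may be technical.

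The labels held for the targeted gene. ELF4 was at 42.4, 38.8 and 46.8 normalised counts in the 3 control libraries and at 5.51, 5.61 and 3.1 after ELF4 siRNA, so 11.1% of the control mean remained (log2 fold change -2.96 ± 0.253 (SE), limma adjusted p = 5.38e-07). Depth was 23148635 to 38097986 reads per library. Of 20339 genes tested, 4956 were lower and 4217 higher after ELF4 siRNA, and with upper-quartile scaling the split was 3597 lower and 5939 higher. Of 8 sympathetic neuroblast markers, 1 rose and 3 fell, and their summed level was 119752 to 127236 in controls and 113840 to 123772 after ELF4 siRNA. Of 5 fibroblast markers 4 rose and PDGFRB fell, with sums of 3838 to 3905 and 3827 to 4133. Of the Schwann markers, S100B rose (142.3% of control). Blood and endothelial markers (3 of 5 had a row) summed to 53.7 to 59.5 and 45.2 to 64.0, and of the 2 tested, PTPRC rose (220.1%) and CD14 fell (41.5%). Epithelial markers (4 of 5 had a row) summed to 196 to 213 and 169 to 209, and of the 3 tested, KRT19 rose (141.7%), CLDN4 fell (46.9%) and EPCAM did not pass. The part of these markers in the results on mitotic genes was not tested.

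Promoter sequences show what most of these genes share apart from their response. RefSeq promoters (GRCh38.p14, 250 bases before to 50 bases after the start) were matched by symbol for 28 of the 32 genes. TPX2, RACGAP1, FAM83D and PBK were not matched. The complete 300-base promoters of PRC1 and HMMR, the genes with the largest decreases, are given with those of CKAP5, the gene with the smallest decrease, and KIF20A, which fell without a CHR match. They read 5′ to 3′ on the gene's strand, and capitals mark the CHR letters (TTTGAA or TTCGAA) and the NF-Y box (CCAAT) on either strand, so that TTCAAA and ATTGG are matches on the opposite strand.
PRC1 (chr15:90994486-90994785, minus strand): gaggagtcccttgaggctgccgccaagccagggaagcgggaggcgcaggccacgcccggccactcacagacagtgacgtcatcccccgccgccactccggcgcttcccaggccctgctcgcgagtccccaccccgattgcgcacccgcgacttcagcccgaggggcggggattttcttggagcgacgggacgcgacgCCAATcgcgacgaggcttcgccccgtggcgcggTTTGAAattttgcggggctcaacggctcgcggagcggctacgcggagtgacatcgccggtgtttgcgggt
HMMR (chr5:163460382-163460681, plus strand): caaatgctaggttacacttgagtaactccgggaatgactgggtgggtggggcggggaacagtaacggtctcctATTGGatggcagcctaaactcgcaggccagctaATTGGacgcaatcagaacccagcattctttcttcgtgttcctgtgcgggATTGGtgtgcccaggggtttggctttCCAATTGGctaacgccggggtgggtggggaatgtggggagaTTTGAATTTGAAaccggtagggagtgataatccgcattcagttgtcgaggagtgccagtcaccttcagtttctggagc
CKAP5 (chr11:46846231-46846530, minus strand): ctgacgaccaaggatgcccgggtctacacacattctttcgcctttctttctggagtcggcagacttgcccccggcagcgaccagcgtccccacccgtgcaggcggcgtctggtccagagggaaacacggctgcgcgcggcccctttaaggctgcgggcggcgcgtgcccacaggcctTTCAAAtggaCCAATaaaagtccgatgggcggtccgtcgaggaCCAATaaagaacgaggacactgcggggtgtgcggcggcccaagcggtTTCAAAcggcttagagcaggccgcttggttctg
KIF20A (chr5:138178862-138179161, plus strand): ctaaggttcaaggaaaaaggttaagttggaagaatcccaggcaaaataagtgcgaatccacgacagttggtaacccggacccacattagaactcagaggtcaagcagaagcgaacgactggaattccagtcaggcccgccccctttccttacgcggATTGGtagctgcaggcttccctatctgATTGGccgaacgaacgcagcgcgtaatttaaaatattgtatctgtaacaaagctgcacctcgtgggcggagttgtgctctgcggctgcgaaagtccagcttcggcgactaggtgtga

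A CHR match was present in 23 of 28 genes (82.1%), where a gene counts if any of its promoters holds a match. Counted in that way, the same letters were found in 19.5% of all 27305 genes with a promoter of this length. They were in 15.7% of the 10281 tested genes that had an entry, and in 1 of 19 other kinesin genes. CCAAT was found in 22 of 28 (78.6%), against 39.7% of all genes, 42.9% of tested genes and 6 of 19 other kinesins. Both elements were present together in a promoter of 20 of the 28 genes, against 6.5% of tested genes. The ETS core CCGGAA, the kind of element that ELF4 and its relatives bind, was found in 11 of 28 (39.3%). That core was in 20.1% of all genes, 33.1% of tested genes and 4 of 19 other kinesins. In 22 genes a CHR match lay within 60 bases of the start, and 9 genes had 2 or more matches in a promoter. In the shorter window of 100 bases before to 50 after the start, CHR remained in 22 of 28 (78.6%) against 6.9% of tested genes, while the ETS core was in 6 of 28 (21.4%) against 24.1%. A match describes letters in this window and does not show that a factor binds there, and PRC1 and CKAP5 carry the same CHR letters although they lie at opposite ends of the range of decreases.

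The 30-base surroundings of the CHR nearest the start show how the element sits in motors (KIF11, KIF24), a spindle assembly gene (DLGAP5) and central spindle genes (KIF14, KIF20B, ANLN, KIF23). Capitals mark that match alone, so the second, adjoining matches of KIF20B and ANLN are in lower case, and all read on the gene's strand.
KIF11 (chr10:92593090-92593119): ctctgtctctttTTCAAAttgaggcgccga
KIF14 (chr1:200620733-200620762): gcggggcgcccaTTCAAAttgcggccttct
KIF20B (chr10:89701602-89701631): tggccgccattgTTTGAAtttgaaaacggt
ANLN (chr7:36389830-36389859): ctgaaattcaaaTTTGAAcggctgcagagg
DLGAP5 (chr14:55191565-55191594): cggtgcggcaagTTTGAAtttcgtggaggc
KIF23 (chr15:69414282-69414311): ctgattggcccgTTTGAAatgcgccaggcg
KIF24 (chr9:34329250-34329279): acagcgcgggcgTTCGAActggcgcttggc
KIF11 and KIF14 carry the element on the opposite strand to the gene. KIF24 has the TTCGAA form, which reads the same on both strands and was counted once, and KIF22 has that form too. The promoters of CKAP2, KIF20A, KIF2C, NEK2 and TACC3 had no match in the window. Those 5 genes had log2 fold changes from -0.48 to -0.17 with a median of -0.43, and the median of the 23 genes with a match was -0.49.

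**Figure D1:**
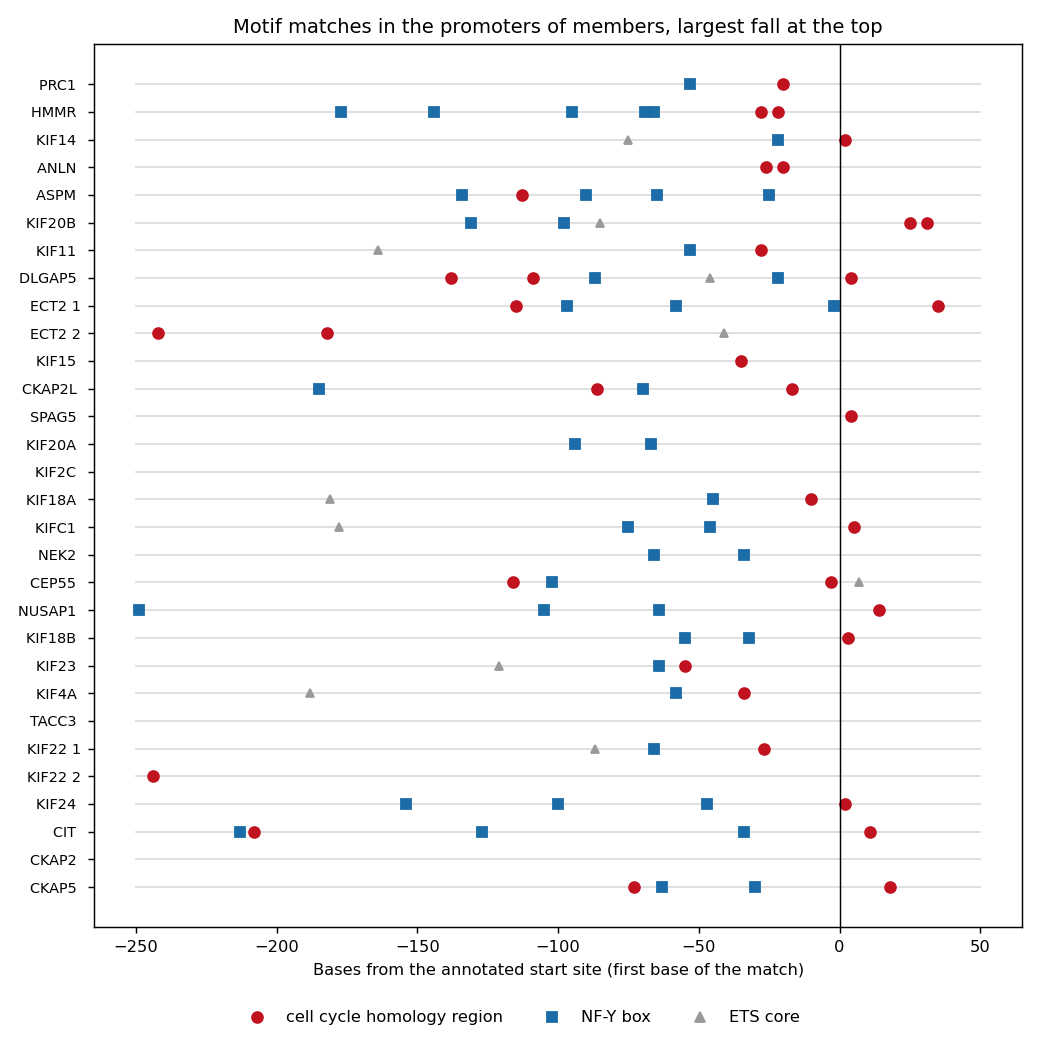
Positions of the 3 promoter elements in the promoters of the 28 matched genes, by distance in bases from the start site (horizontal axis), with 1 row per promoter ordered by log2 fold change (ECT2 and KIF22 have 2 starts each). CHR matches (circles) lie within 60 bases of the start in 22 genes, squares mark NF-Y boxes and triangles the ETS core.

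All of the listed mitotic genes were lower after ELF4 siRNA. All 32 genes passed the filter on low values, all 32 fell and 0 rose (limma, adjusted p from 5.1e-09 to 0.0173), where 24.4% of all tested genes were lower and 20.7% were higher. Lower calls were more frequent among well expressed genes. Of 13056 genes with a mean of at least 100, which include all 32, 4424 were lower and 3353 higher. In all 32, every ELF4 siRNA library was below every control library, a pattern seen in 28.2% of all tested genes. Log2 fold changes on log2(value + 1) ran from -0.86 to -0.12 with a median of -0.46, beside a median of -0.00 over all tested genes. The decreases were moderate, with 11 of the 32 at -0.5 or below. The summed level of the 32 genes was 104387, 101200 and 104125 normalised counts in controls and 75897, 74961 and 74704 after ELF4 siRNA, 72.8% of control. Replicates were tight, with a median coefficient of variation of 3.5% in controls and 4.2% after ELF4 siRNA. In bulk RNA, fewer dividing cells and less of each transcript per dividing cell cannot be told apart.

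**Figure D2:**
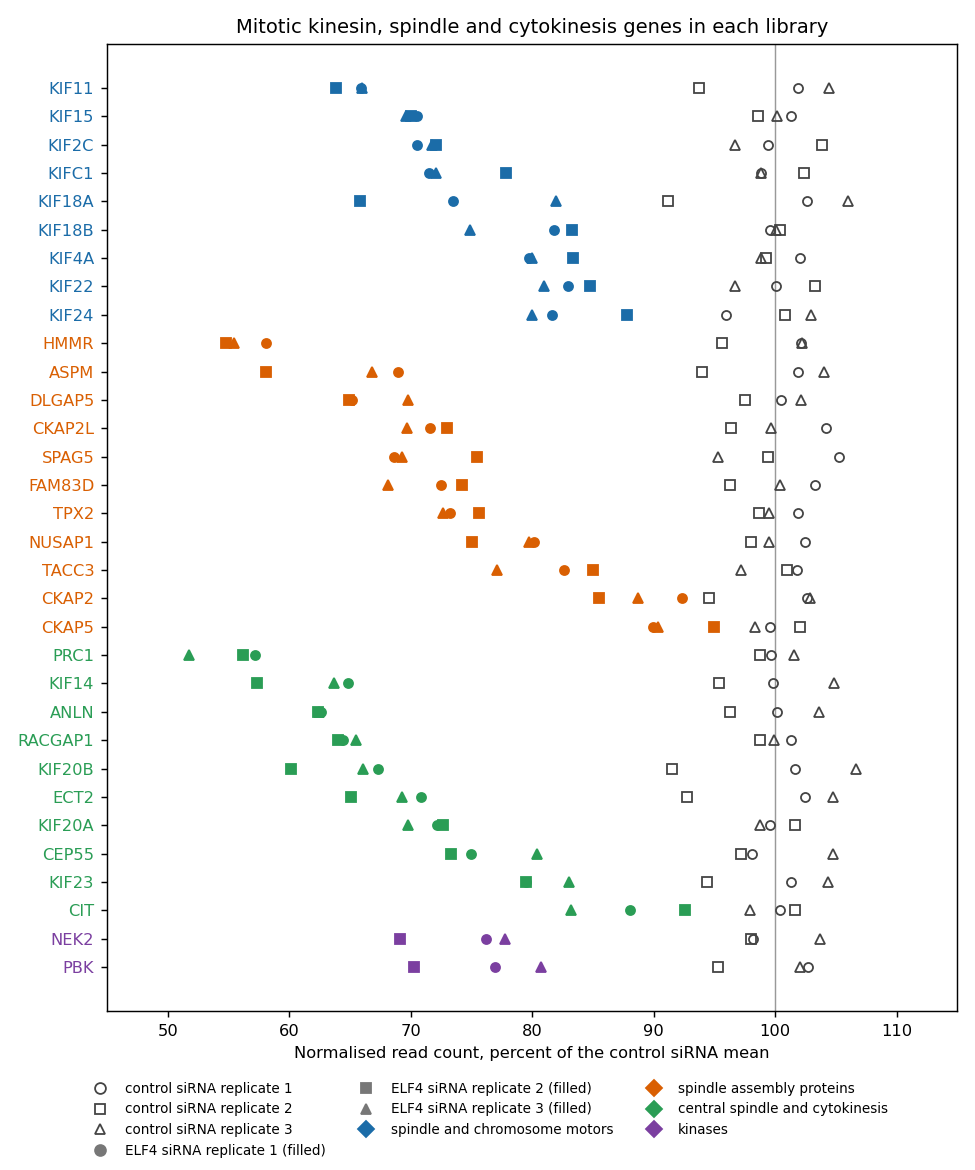
Normalised count of each of the 32 genes in all 6 libraries as percent of the control mean, coloured by role, open for controls and filled for ELF4 siRNA. For each gene the 3 ELF4 siRNA libraries lie below the 3 controls, with the widest gap in PRC1 and the narrowest in CKAP2.

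The 9 motors of the spindle and chromosomes all fell, to a summed level of 75.6% of control (median log2 fold change -0.44). KIF11, the motor that pushes the spindle poles apart, had 3849, 3540 and 3946 normalised counts in controls and 2491, 2411 and 2492 after ELF4 siRNA. It had the largest decrease of the group, to 65.2% of control (log2 fold change -0.61 ± 0.047 (SE), limma adjusted p = 1.82e-07). Its groups were well separated. KIF15, which can keep a bipolar spindle when KIF11 is blocked, was at 866, 843 and 856 in controls and at 603, 599 and 595 after ELF4 siRNA, a log2 fold change of -0.51. Its groups did not overlap either.

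KIFC1, a minus-end-directed motor that focuses spindle poles and clusters extra centrosomes, had 2936, 3040 and 2935 normalised counts in controls and 2124, 2312 and 2140 after ELF4 siRNA (log2 fold change -0.44). KIF2C, which takes apart microtubules at kinetochores, had 1715, 1792 and 1668 and then 1216, 1243 and 1238 (-0.48). For both, the highest ELF4 siRNA library stayed clear of the lowest control. KIF18A, which dampens chromosome movements at metaphase, had 511, 454 and 528 and then 366, 328 and 408 (-0.44). KIF18A had the widest relative spread of the 32 genes, with a coefficient of variation of 7.9% in controls and 10.9% after ELF4 siRNA, yet its groups did not overlap.

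Smaller decreases were seen in the remaining 4 motors. KIF18B, which limits the length of astral microtubules, had 2523, 2542 and 2535 normalised counts in controls and 2072, 2109 and 1897 after ELF4 siRNA (log2 fold change -0.32). The chromokinesin KIF4A, which moves chromosome arms and later shortens the central spindle together with PRC1, had 1979, 1925 and 1917 and then 1547, 1617 and 1552 (-0.30). KIF22, another chromokinesin, had 4524, 4671 and 4371 and then 3752, 3832 and 3661 (-0.27). KIF24, a kinesin of the centriole that restrains cilium formation, had the lowest control level per kilobase of transcript among the 32 genes (77.2 normalised counts per kilobase). It was at 455, 478 and 488 in controls and at 387, 416 and 379 after ELF4 siRNA (-0.27), and its groups did not overlap.

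The 11 spindle assembly proteins all fell too, to a summed level of 76.3% of control, and they spanned a wide range of log2 fold changes, from -0.83 to -0.12 (median -0.48). HMMR, which holds the spindle poles together and interacts with TPX2, had 2274, 2129 and 2277 normalised counts in controls and 1294, 1220 and 1236 after ELF4 siRNA. This left 56.1% of control (log2 fold change -0.83 ± 0.047 (SE), limma adjusted p = 1.36e-08). A gap of 39.2% of the lowest control value separated the groups. ASPM, a protein of the spindle pole whose loss causes microcephaly, had 6224, 5741 and 6354 and then 4209, 3549 and 4081 (-0.63). DLGAP5, which stabilises the microtubules that attach to chromosomes, had 2926, 2840 and 2975 and then 1899, 1891 and 2033 (-0.59). In each of these genes all ELF4 siRNA libraries were below all controls.

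TPX2, which activates the Aurora A kinase and starts microtubules near chromosomes, had 8786, 8506 and 8581 normalised counts in controls and 6319, 6524 and 6268 after ELF4 siRNA (log2 fold change -0.44 ± 0.037 (SE), limma adjusted p = 4.88e-07). SPAG5, also called astrin, which steadies chromosome attachment, had 2268, 2142 and 2052 and then 1478, 1626 and 1492 (-0.49). FAM83D, which brings HMMR and a kinase to the spindle, had 2963, 2762 and 2880 and then 2079, 2128 and 1955 (-0.48). These 3 genes sat near the median of the group. CKAP2L, a paralogue of CKAP2, had 917, 848 and 877 and then 630, 642 and 613 (-0.49). NUSAP1, which bundles spindle microtubules, had 4961, 4745 and 4818 and then 3881, 3633 and 3862 (-0.35), and its control level per kilobase was the highest of the 32 genes (2972).

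TACC3 and CKAP5 form a complex with clathrin that bridges the microtubules of kinetochore fibres, and CKAP5 is also the polymerase that lengthens microtubules throughout the cell cycle. TACC3 had 3747, 3717 and 3575 normalised counts in controls and 3041, 3127 and 2836 after ELF4 siRNA (log2 fold change -0.29). CKAP5 had the smallest decrease of the 32 genes, with 6634, 6795 and 6552 and then 5991, 6322 and 6019 (-0.12 ± 0.039 (SE), limma adjusted p = 0.0173). Its highest ELF4 siRNA library was 3.5% below the lowest control, and with upper-quartile scaling it no longer passed (-0.04, limma adjusted p = 0.498). CKAP2, a microtubule-binding protein of the spindle poles, had the narrowest gap, 2.3%, with 5001, 4608 and 5013 in controls and 4501, 4169 and 4323 after ELF4 siRNA (-0.17, limma adjusted p = 0.00743). After a correction for GC content and length, chosen after the data had been seen, CKAP2 was at 0.07 and did not pass (limma adjusted p = 0.0808). A second row joins TACC3 with an overlapping gene and a second row joins SPAG5 with another, holding 17.3% and 16.9% of the level of the gene's own row, and neither changed a direction when added.

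The central spindle and cytokinesis group had the lowest median log2 fold change of the 4 role groups (-0.59), and its summed level was the lowest relative to control (66.4%), with all 10 genes lower. After the correction for GC content and length the group did not stand apart by its median. Its middle values were then -0.44 (KIF20A) and -0.32 (KIF20B), beside a middle value of -0.39 among the spindle assembly genes. PRC1, which cross-links antiparallel microtubules to form the central spindle, had 7052, 6989 and 7184 normalised counts in controls and 4046, 3979 and 3662 after ELF4 siRNA. It had the largest decrease of the 32 genes, to 55.1% of control (log2 fold change -0.86 ± 0.044 (SE), limma adjusted p = 5.1e-09). The highest ELF4 siRNA library was 42.1% below the lowest control. RACGAP1, the GTPase-activating subunit of centralspindlin, had 5504, 5368 and 5430 and then 3501, 3480 and 3558 (-0.63 ± 0.037, limma adjusted p = 1.91e-08). Its motor partner KIF23 fell from 2434, 2269 and 2508 to 1911, 1910 and 1996 (-0.31). ECT2, the exchange factor that centralspindlin recruits to activate RhoA, had 3959, 3584 and 4048 and then 2737, 2514 and 2678 (-0.55). For all 4 of these genes the groups were separate.

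ANLN, or anillin, the scaffold of the contractile ring, had 4225, 4060 and 4371 normalised counts in controls and 2640, 2630 and 2633 after ELF4 siRNA (log2 fold change -0.68 ± 0.041 (SE), limma adjusted p = 2.36e-08). The 3 ELF4 siRNA libraries were nearly equal. KIF14, which brings citron kinase to the midbody, had 1992, 1904 and 2093 and then 1294, 1145 and 1271 (-0.69). Its partner CIT, the citron kinase itself, fell from 1959, 1983 and 1911 to 1718, 1806 and 1623 (-0.19, limma adjusted p = 0.00606). CIT did not pass with upper-quartile scaling (-0.10, limma adjusted p = 0.122).

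KIF20A, which carries the chromosomal passenger complex to the central spindle, had 4642, 4737 and 4602 normalised counts in controls and 3365, 3385 and 3251 after ELF4 siRNA (log2 fold change -0.48). KIF20B, a related motor needed for late cytokinesis, had 1839, 1656 and 1930 and then 1218, 1088 and 1196 (-0.63). Both were clearly separated between groups. CEP55, which recruits the abscission machinery to the midbody, had 1093, 1083 and 1167 and then 835, 817 and 896 (-0.39).

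The 2 kinases had similar decreases. NEK2, which loosens the linker between centrosomes before the spindle forms, was at 1182, 1180 and 1248 normalised counts in controls and at 917, 832 and 936 after ELF4 siRNA (log2 fold change -0.43). PBK, a mitotic kinase of the MAPKK family, was at 2447, 2270 and 2432 and then at 1834, 1675 and 1923 (-0.40). For both, all ELF4 siRNA libraries lay below all controls. The 13 kinesins of the set had a median of -0.44 (range -0.69 to -0.27) and the other 19 genes a median of -0.48 (range -0.86 to -0.12).

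Ratios show how partner proteins compared with each other within a library. The log2 ratio of 8 partner or paralogue pairs was compared between groups with an exact two-sided permutation test of 3 libraries against 3, for which the smallest possible p is 0.1. The ratio of KIF4A to PRC1 was -1.83, -1.86 and -1.91 in controls and -1.39, -1.30 and -1.24 after ELF4 siRNA, a difference of 0.56 between a motor and the protein that recruits it (exact p = 0.1, adjusted over 8 pairs 0.133). The ratio of KIF23 to RACGAP1, the 2 subunits of centralspindlin, was -1.18, -1.24 and -1.11 in controls and -0.87, -0.86 and -0.83 after ELF4 siRNA, a difference of 0.32 (exact p = 0.1, adjusted 0.133). In both pairs the libraries of the groups did not overlap.

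The ratio of FAM83D to HMMR differed by 0.35 (ELF4 siRNA minus control), that of KIF15 to KIF11 by 0.10, that of TACC3 to CKAP5 by -0.17 and that of CKAP2L to CKAP2 by -0.32, all 4 without overlap (exact p = 0.1, adjusted 0.133 for each). The ratio of KIF20B to KIF20A overlapped between groups, with a difference of -0.15 (exact p = 0.3, adjusted 0.343), and that of KIF18B to KIF18A overlapped with a difference of 0.12 (exact p = 0.6, adjusted 0.6). Thus 6 of 8 ratios separated the groups, at the smallest p the design allows, and none passed 0.05. How often ratios of other gene pairs separate the groups was not tested, so this count describes these 8 pairs alone. The ratios were not corrected for GC content, which was 51.15% for FAM83D and 36.65% for HMMR. After the GC and length correction, log2 fold changes were -0.44 and -0.58 for that pair and -0.41 and -0.43 for KIF15 and KIF11. They were -0.26 and -0.81 for KIF4A and PRC1. The order within a pair turned for KIF20B (-0.32) and KIF20A (-0.44), and for KIF18B (-0.34) and KIF18A (-0.21). It was kept in the other pairs.

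**Figure D3:**
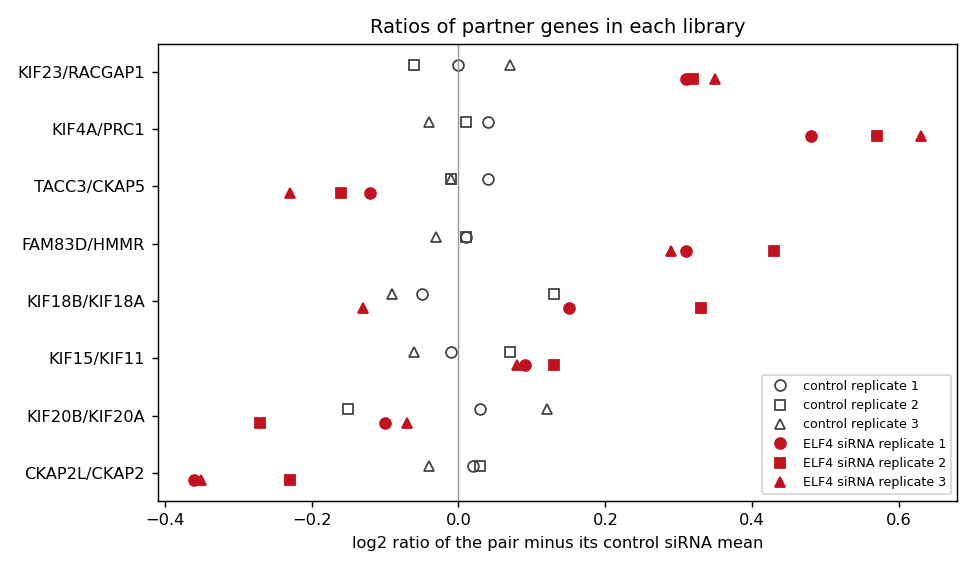
Log2 ratio of normalised counts within 8 partner or paralogue pairs, 1 point per library, control against ELF4 siRNA libraries. The groups separate in 6 pairs and overlap for KIF20B/KIF20A and KIF18B/KIF18A.

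Related genes outside the set were less uniform. Of 24 tested other kinesin heavy chains, most of which move cargo in resting cells and neurons, 10 fell and 6 rose, while 8 missed the threshold. Their median log2 fold change was -0.09 and their summed level 93.8% of control. KIF3B, a motor of intraflagellar transport, had 2440, 2398 and 2388 normalised counts in controls and 1728, 1736 and 1763 after ELF4 siRNA (-0.47, limma adjusted p = 6.95e-07). KIF5A, a neuronal cargo motor, rose from 781, 748 and 718 to 1159, 1225 and 1305 (0.71, limma adjusted p = 2.98e-07). KIF21B, a neuronal kinesin that regulates microtubule growth, fell from 80.1, 91.4 and 93.5 to 23.1, 26.9 and 16.6 (-1.97, limma adjusted p = 8.56e-07). Kinesins outside the set thus changed in both directions.

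Of 18 tested genes of the gamma-tubulin ring and augmin complexes, which start new microtubules, 8 fell, 1 rose and 9 missed the threshold (median -0.14, summed level 90.1% of control). TUBG1 (gamma-tubulin, -0.44), MZT1 (-0.47) and HAUS6 (an augmin subunit, -0.47) were the genes named by rule. Of 21 tested genes of the contractile ring and abscission machinery, 14 fell, 1 rose and 6 missed the threshold (median -0.23, summed level 83.4% of control). CHMP7, an ESCRT protein, had the largest change there, from 1932 ± 22.4 (SD, n = 3) in controls to 1117 ± 67.1 after ELF4 siRNA (-0.79, limma adjusted p = 3.75e-08), and ARHGAP11A, a RhoA regulator, was at -0.53. Of 24 other proteins of microtubule ends and poles, 10 fell, 10 rose and 4 missed the threshold (median 0.04, summed level 95.6% of control), and CAMSAP1 (-0.67) and TACC1 (-0.76) were the genes named by rule.

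Regulators that act at CHR promoters were examined in a list of 14 genes of the MuvB complex and its partners, of which 7 fell, 1 rose and 6 missed the threshold (median -0.26, summed level 81.5% of control). MYBL2, which joins MuvB in dividing cells, had 6559, 6364 and 6429 normalised counts in controls and 3582, 3724 and 3700 after ELF4 siRNA (log2 fold change -0.81, limma adjusted p = 2.69e-09). RBL2, the p130 pocket protein that joins MuvB in resting cells, was at 1564 ± 35.1 (SD, n = 3) in controls and 1100 ± 31.2 after ELF4 siRNA (-0.51). FOXM1, chosen after its values were seen, had 4976, 4718 and 4716 and then 3515, 3829 and 3479 (-0.41). The other genes of the list that fell were LIN9 (-0.48), LIN52 (-0.47), RBL1 (-0.43) and the NF-Y subunit NFYA (-0.44). The DREAM partners E2F4 (0.06) and TFDP1 (-0.10) missed the threshold, as did LIN37, LIN54, RBBP4 and NFYC. NFYB, also an NF-Y subunit, was the gene that rose (0.15, limma adjusted p = 0.0409). No gene of the list rose without the filter on low values, without a trend or by DESeq2.

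**Figure D4:**
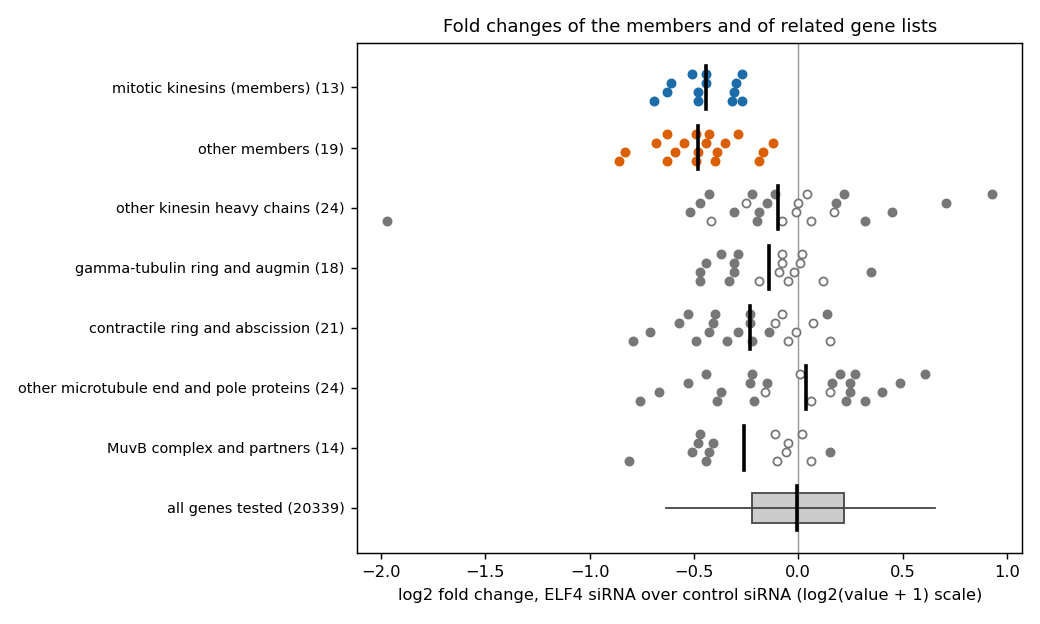
Log2 fold change of each tested gene (1 point per gene, filled where it passed the test) in the 13 mitotic kinesins, the other 19 mitotic genes and 5 lists of related genes, with a bar at each median. The box for all 20339 genes tested spans the quartiles, and its line runs from the 5th to the 95th percentile. All 32 mitotic genes lie below 0, while the 5 related lists contain genes on both sides of 0.

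GC content of the GENCODE 29 transcript moved with the size of the decrease. Here and below, coding genes are tested genes with a coding transcript and a mean of at least 100 normalised counts. Across the 32 genes, log2 fold change and GC content had Pearson r = 0.42 and Spearman rho = 0.49, and genes are not independent replicates and share the 6 libraries. The 9 mitotic genes under 40% GC, which include HMMR, KIF14, ASPM and KIF20B, had a median of -0.61, beside a median of -0.19 over 1486 coding genes in that range, of which 52.2% were lower. The 4 genes at 55% GC or more, KIFC1, KIF18B, KIF22 and TACC3, had a median of -0.31, beside 0.01 over 3021 coding genes. In every one of 5 GC ranges the median of the mitotic genes was below that of all coding genes. Against log2 transcript length the same genes had r = -0.07 and against log2 control level r = -0.11.

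Replicate number also moved with GC content. Of the 32 genes, 16 were lowest in replicate 2 in both groups, with GC content of 34.2% to 43.9%, against 24.9% of 9929 coding genes. Another 7 (KIFC1, KIF18B, KIF2C, KIF22, CKAP5, KIF20A and CIT) were highest in replicate 2 in both groups, with GC content of 44.2% to 62.4%, against 13.5% of coding genes. After correction for GC content and length, 31 of 32 genes still fell, with a median of -0.35 and a range of -0.81 to 0.07. Decreases shrank by over 1.5 times in DLGAP5 (-0.39), ECT2 (-0.30), KIF20B (-0.32) and KIF18A (-0.21). The corrected values were -0.81 for PRC1, -0.58 for HMMR, -0.56 for RACGAP1, -0.55 for ANLN and -0.53 for KIF14.

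**Figure D5:**
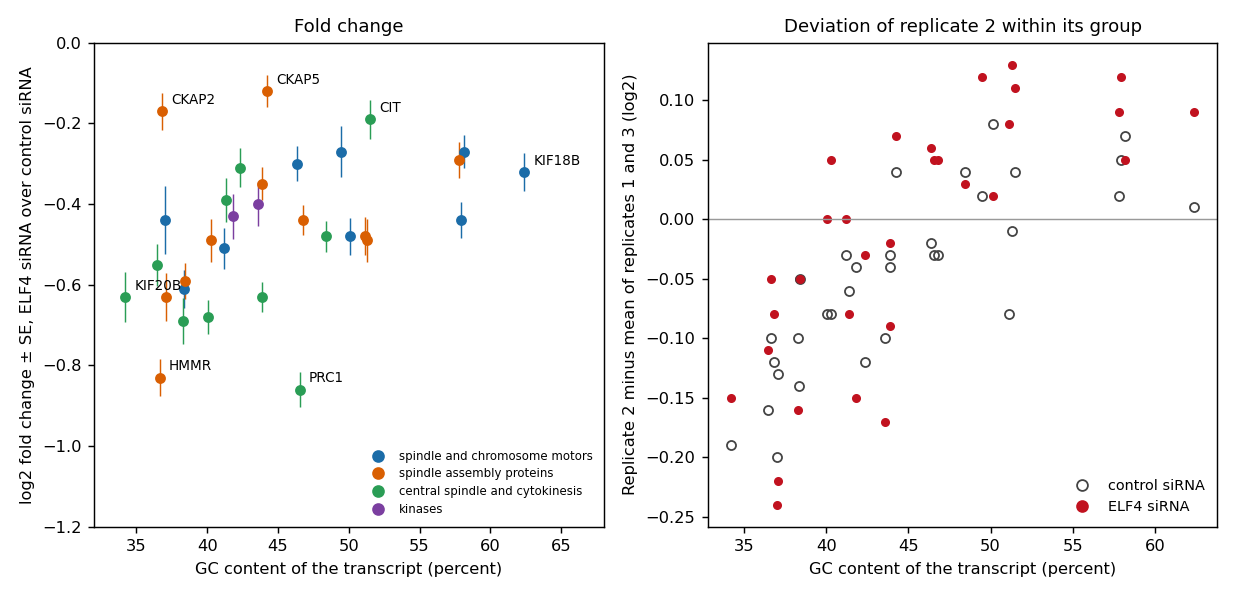
Left, log2 fold change with its SE against GC content of the transcript (percent), 1 point per mitotic gene, coloured by role. Right, deviation of replicate 2 from the mean of replicates 1 and 3 (log2) against GC content in controls (open) and ELF4 siRNA libraries (filled), where all 9 genes under 40% GC have negative values in both groups.

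The 3′ UTRs of these genes were compared with those of tested coding genes for a pair of overlapping 7-base strings, ACCTGTC or CCTGTCA. The coding genes had a mean of at least 100 normalised counts, and earlier work on these data had picked out the strings. In the GENCODE 29 transcript with the longest coding sequence of each gene they were found in 1 of 32 mitotic genes (3.1%) and in 1775 of 9794 genes (18.1%). The single match was in ANLN, at base 1083 of a 3′ UTR of 1191 bases, where capitals mark the string.
ANLN: ttctgtcacctCCTGTCAttttatttttta
The 31 mitotic genes without a match had log2 fold changes from -0.86 to -0.12 with a median of -0.44. The median was -0.04 over all genes without a match and -0.14 over those with one. As the strings had been picked out in these data, the difference between those medians is not an independent observation. The part of 3′ UTR length in that difference was not tested. Mitotic genes have short 3′ UTRs, with a median of 637 bases, against 2675 for genes with a match and 879 for genes without. When every coding transcript was searched, KIF18B was the only other of the 32 genes with a match, against 22.7% of the 9794 genes.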

How the data were processed

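Poly(A) RNA of BE-(2)-C cells was measured in 3 control siRNA and 3 ELF4 siRNA libraries, grouped by the labels. The authors deposited 1 table of a normalised count signal per gene on 26906 rows. TopHat, featureCounts, DESeq2 and hg19 are named per the submitters' processing notes. Versions, roles, the annotation and the strand setting were not given in the sources used here. The lowest value above 0 of a library was taken as a single read, and in those units 100% of values were whole numbers to within 0.001. Whole reads were recovered in this way, and the deposited signal is reads over a size factor. Antisense partners cannot be told apart, and 2148 rows join several names.

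The main test was limma 3.58.1 with a trend on log2(value + 1), without covariates, over the 20339 genes that reached 10 in 3 or more libraries, with Benjamini-Hochberg adjustment and a threshold of 0.05. Such fold changes understate changes of genes with few reads. Alternatives were edgeR 4.0.16 and DESeq2 1.42.0 on the recovered reads, other scalings, pseudocounts and filters, a replicate block, each library left out, and, chosen after the data were seen, a correction for GC content and length. Libraries of 1 group differed by more than sampling noise (chi-square per degree of freedom 2.05 to 5.78), so none was merged. On simulated data for this comparison (20023 genes), limma recovered 62.6% of changes of 0.5 and 91% of changes of 1 (log2). The simulation changed 99 and 100 genes by these amounts and gave all genes the same level of noise between libraries. In the data 9173 genes were called, so these shares do not measure the recovery there.

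The 32 genes, the 5 lists of related genes and the marker lists were chosen with earlier results of these data known. The summed level of the Schwann marker list is not reported here. Of 168 listed genes, 163 were matched by symbol and 5 had no row. The genes named by rule were all 32, ELF4 and, from each related list, up to 2 with the smallest adjusted p plus the called gene with the largest fold change. The MuvB list genes other than MYBL2 and RBL2, and the single marker genes, were named outside this rule. Genome files on hg19 were not used here, so promoters are from RefSeq on GRCh38.p14 and transcripts from GENCODE 29, matched by symbol, and no position in the authors' build is given.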

Additional observations from a re-analysis of the deposited data

How the results depend on the processing

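All 32 mitotic genes fell under edgeR, DESeq2, TMM and total scaling, other pseudocounts, with and without filters and with joined rows added. With upper-quartile scaling 29 fell, without CKAP2, CKAP5 and CIT, and without a trend in limma 30 fell, without CKAP2 and CKAP5. With each library left out in turn, 31 to 32 fell, and CKAP5 was lost without control replicate 1 (-0.13, limma adjusted p = 0.0561) and without ELF4 siRNA replicate 1 (-0.11, limma adjusted p = 0.0784). CKAP2 turned to 0.07 with the GC and length correction and to 0.07 with that correction and the replicate block, passing in neither. Over all genes, 9173 were called, 9261 by edgeR, 7500 by DESeq2 and 7658 to 9070 with a library left out.

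Over all genes the deviations of same-numbered libraries correlated at 0.029 to 0.075, under the 0.1 set for pairing, so the numbers were not taken as pairs. Each library nevertheless correlated best with its own number, and replicate 2 deviated with GC content in the same direction in both groups. With a replicate block all 32 genes still fell, 9910 genes were called, and the gamma-tubulin list had 2 rises.

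In the related lists, counts moved by 1 to 4 genes. Of other kinesins 6 fell with upper-quartile scaling, against 10. Of the gamma-tubulin list 2 rose, against 1, with a mean of at least 100, with upper-quartile, total and TMM scaling and by edgeR, and 1 to 2 with a library left out. Of the contractile ring list 2 rose with upper-quartile scaling and 0 without a trend, against 1, and 0 to 2 with a library left out. Of the MuvB list 0 rose without the filter, without a trend and by DESeq2, 2 rose with upper-quartile scaling, against 1, and 0 to 1 with a library left out. The ETS core was in 6 of the genes with a promoter in the shorter window, against 11. The smallest read count among the 32 was 292, in KIF18A. Intervals of counting error were not computed, so the part of counting error in the narrower gaps was not tested.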
